A study of Rattus norvegicus with 11 samples.

Results

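The genes described here encode subunits of the mitochondrial respiratory chain and of ATP synthase, followed through the conversion of rat embryonic stem cells into hypoblast stem cells. They were chosen by symbol, with earlier results of these data known. Every gene of the array whose symbol begins with Nduf and a, b, c, s or v, or with Uqcr, was taken. So was every gene whose symbol begins with Cox and a digit from 4 to 8, or with Atp5. This gave 76 of the 14506 genes with a row of their own in the expression table. Complex I had 32 members, complex III 7, complex IV 15 and ATP synthase 15. The other members were the ATP synthase inhibitor Atp5if1, 3 complex I assembly factors (Ndufaf1, Ndufaf3 and Ndufaf4), Cox7a2l, a factor that helps join complexes III and IV, and 2 symbols of pseudogene form (Ndufs6-ps1 and Cox6c-ps1). Ndufa4 was counted with complex IV, where its protein is now placed. Cox6b1, Cox7a1 and Ndufa4l2 were not analysed here.

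Complex I takes electrons from NADH and complex III takes them from reduced coenzyme Q. Complex IV hands them to oxygen, and all 3 pump protons out of the mitochondrial matrix, a gradient that ATP synthase spends to make ATP. Embryonic stem cells are known for drawing much of their energy from glycolysis, with respiration active in the naive state, and several subunits have tissue-restricted isoforms, of which complex IV has the most.

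RNA of the rat embryonic stem cell line DAc2 and of the cells derived from it was hybridised to 11 Affymetrix Rat Gene 1.0 ST arrays, at days 0, 7, 17 and 32 of conversion. Both starting cultures held 3 µM CHIR99021, an inhibitor of the kinase GSK3, together with the MEK inhibitor PD0325901. The feeder-free culture was grown on laminin with 2 µM PD0325901 and with human BMP4 at 5 ng/mL, and the feeder culture on mouse embryonic fibroblasts with 0.5 µM PD0325901 and no BMP4 named. Conversion of both used a progenitor cell medium that contained 2% fetal bovine serum with LIF, EGF and PDGF. Every group stems from this 1 line, and whether feeder cells were present during conversion is not given in the labels. The feeder-free culture had 1 array at day 0 and 2 at each later day, called biological replicates. The feeder culture had 1 array per day. Below, feeder and feeder-free name the starting culture on every day. The labels do not say whether the replicates were separate cultures, so p-values may measure technical spread only.

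Values are log2 expression values, on which a difference of 1 is a 2-fold difference. Errors given after a ± are standard errors of limma's fit. Adjusted p is the Benjamini-Hochberg value over all 14506 genes, and a change was called at an adjusted p under 0.05. In RNA of whole cultures, fewer cells of a type and less RNA per cell cannot be told apart. The labelled states were checked on their markers. From day 0 to day 32, 4 of 5 naive pluripotency genes fell and 5 of 5 hypoblast genes rose in limma. The feeder culture lagged at day 7, when its mean over the hypoblast genes was 10.65 against 13.47 and 13.58 on the feeder-free arrays. Markers of fibroblasts, the feeder cell type, had means of 8.36 to 8.47 on the feeder-free arrays and of 9.98, 9.29, 8.84 and 8.60 on the feeder arrays of days 0, 7, 17 and 32, over 14 measured genes of 15. Of these 14 genes, 8 or 9 lay above background on each feeder-free array and 9 to 11 on each feeder array. Fap, Lum and Dcn lay below it on all 11 arrays, and Postn lay above it only on the feeder arrays of days 0 and 7, at 11.79 and 8.42.

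Most members were read far above background. Olfactory and vomeronasal receptor genes, 1240 in number and taken as silent here, had a median of 6.36, with 95% of them under 8.06. Below that bound on all 11 arrays were 4 members: Cox4i2, Cox8b, Cox8c and Cox6c-ps1. Cox4i2 is the isoform of subunit 4 known from lung, Cox8b that of subunit 8 from muscle and heart, and Cox8c that from testis. Cox8b lay between 6.78 and 7.44 on all arrays, Cox8c between 7.31 and 7.62, and Cox4i2 between 6.98 and 7.89. The muscle form of subunit 6a, Cox6a2, lay between 9.06 and 9.41 with no call in any comparison. Their widely expressed counterparts were all above the bound: Cox4i1 from 12.51 to 13.46, Cox6a1 from 14.26 to 14.60 and Cox8a from 13.87 to 15.26. The testis isoform Cox6b2 was above the bound on all 11 arrays and is described with the falls below.

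Promoter sequence is a feature that the choice by symbol did not use. RefSeq windows of GRCr8, running from 250 bases before to 50 bases after the transcript start, were matched for 66 of the 76 members and searched on both strands for 4 sets of letters tied to factors known to act on respiratory genes. The NRF1 letters, GCGCA and GCGC with any 1 base between them, stood in 13 of the 66 windows (19.7%), against 4.25% of all 33469 promoters. The ETS family letters CCGGAAG stood in 19 (28.8% against 8.75%), and the YY1 letters AAGATGGC in 12 (18.2% against 3.17%). The ERR letters TCAAGGTCA stood in 1 window, that of Atp5mc3 (1.52% against 0.433%). At least 1 of the 4 was found in 36 members (54.5%), against 15% of all promoters. Median GC content was 56.2% in the members and 51.7% over all promoters, and it was not matched in these shares. A match is a description of letters and not a binding site. Of the 16 matched members that fell by day 32, 3 held the NRF1 letters, as did 3 of the 6 that rose. The 5 windows below were chosen after their values were seen. Cox6b2 had the lowest and Ndufs8 the highest change of a called member from day 0 to day 32, Ndufv3 had the lowest adjusted p at day 7, and Atp5me and Atp5mc3 are ATP synthase genes called in opposite directions whose windows hold more than 1 kind of motif. They lie at these places: Cox6b2 at chr1:78122621-78122920 (plus strand), Ndufv3 at chr20:9613536-9613835 (plus strand), Atp5me at chr14:1464610-1464909 (plus strand), Atp5mc3 at chr3:79220615-79220914 (minus strand), Ndufs8 at chr1:210573649-210573948 (minus strand). Each is written 5′ to 3′ on the gene's strand, with searched motifs of either strand in capitals.
Cox6b2: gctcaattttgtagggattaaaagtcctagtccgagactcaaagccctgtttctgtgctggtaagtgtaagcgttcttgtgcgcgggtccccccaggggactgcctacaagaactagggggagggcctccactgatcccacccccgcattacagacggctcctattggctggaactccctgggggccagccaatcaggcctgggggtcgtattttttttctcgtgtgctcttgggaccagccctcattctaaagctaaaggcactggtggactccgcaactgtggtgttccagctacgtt
Ndufv3: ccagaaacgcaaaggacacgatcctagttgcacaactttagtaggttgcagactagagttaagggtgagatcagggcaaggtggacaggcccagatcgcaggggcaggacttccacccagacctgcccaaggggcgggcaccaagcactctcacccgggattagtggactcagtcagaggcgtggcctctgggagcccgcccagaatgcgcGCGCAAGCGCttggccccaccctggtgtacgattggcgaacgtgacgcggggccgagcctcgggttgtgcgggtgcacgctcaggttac
Atp5me: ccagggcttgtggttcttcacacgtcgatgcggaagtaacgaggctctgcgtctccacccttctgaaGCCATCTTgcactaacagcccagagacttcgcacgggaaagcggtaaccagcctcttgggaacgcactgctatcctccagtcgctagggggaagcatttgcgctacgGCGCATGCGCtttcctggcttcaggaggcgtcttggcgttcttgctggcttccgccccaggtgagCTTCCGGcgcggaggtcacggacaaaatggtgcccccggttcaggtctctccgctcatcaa
Atp5mc3: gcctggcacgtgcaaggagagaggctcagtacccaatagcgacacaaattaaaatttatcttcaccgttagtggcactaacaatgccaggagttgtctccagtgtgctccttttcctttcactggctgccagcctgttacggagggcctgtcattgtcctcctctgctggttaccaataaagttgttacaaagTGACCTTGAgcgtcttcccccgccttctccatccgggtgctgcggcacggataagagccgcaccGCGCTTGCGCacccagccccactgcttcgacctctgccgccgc
Ndufs8: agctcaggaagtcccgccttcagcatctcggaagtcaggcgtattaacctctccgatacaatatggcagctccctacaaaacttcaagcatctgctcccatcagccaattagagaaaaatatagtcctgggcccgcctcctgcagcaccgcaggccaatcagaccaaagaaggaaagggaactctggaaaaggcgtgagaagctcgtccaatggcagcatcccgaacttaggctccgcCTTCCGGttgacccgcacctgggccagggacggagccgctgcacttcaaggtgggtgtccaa
The Cox6b2 window held none of the 4 sets of letters. The capitals mark NRF1 letters in Ndufv3, YY1, NRF1 and ETS letters in Atp5me from left to right, ERR and NRF1 letters in Atp5mc3, and ETS letters in Ndufs8.

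In the first 7 days of conversion, 13 of the 76 members fell and 0 rose in limma's fit of day and culture (9.27% of all genes fell and 6.74% rose). At an unadjusted p under 0.05, 36 members and 4391 of the 14506 genes passed. The members' median change was -0.24, against -0.04 over all genes. Changes below 0 were seen in 64 members, and 49 were lower at day 7 in both cultures, which held for 36.3% of all genes. Of the 13, 8 belonged to complex I, 3 to ATP synthase and 1 to complex IV, and the last was Cox7a2l. The median was -0.25 for complex I, -0.16 for complex III, -0.06 for complex IV and -0.25 for ATP synthase. Of the 15 complex IV members, 3 lay below background on all arrays, against 0 in each of the other complexes. No complex III member passed the test. All 13 were lower in both cultures.

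Ndufv3, Ndufs1 and Ndufv1 of complex I fell at day 7. Ndufv1 carries the NADH binding site, Ndufs1 is the largest iron-sulfur subunit, and Ndufv3 is a small subunit beside them. Ndufv3 read 12.30 in feeder-free cells at day 0 and 11.55 and 11.72 at day 7, and in the feeder culture it went from 12.91 to 12.13. Both day 7 values lay below day 0 in the feeder-free culture, and the feeder value at day 7 lay below the feeder-free value at day 0. The fitted change was -0.73 ± 0.09 (limma adjusted p = 0.00265). Ndufs1 read 13.74 at day 0 in the feeder-free culture and 13.03 and 13.12 at day 7, and 13.32 and 12.94 in the feeder culture. It fell by 0.56 ± 0.11 (limma adjusted p = 0.0129). Ndufv1 went from 12.65 to 11.87 and 11.99 in the feeder-free culture and from 12.88 to 12.53 in the feeder culture, and it fell by 0.57 ± 0.11 (limma adjusted p = 0.0103). The day 7 arrays of each culture were below its day 0 array for all 3 genes. Without the feeder-free array of day 0, the calls of Ndufs1 (change -0.55) and Ndufv1 (change -0.47) were lost (limma adjusted p = 0.0964 and 0.111). Ndufv2, the partner of Ndufv1 in taking up electrons, changed by -0.29 and was not called (limma adjusted p = 0.121).

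The other complex I members that fell were the accessory subunits Ndufa10, Ndufb6, Ndufb3, Ndufa12 and Ndufa3, by 0.39 to 0.93. Ndufa10 had the lowest called change, -0.93 ± 0.24 (limma adjusted p = 0.0313), but the cultures differed. It read 9.90 at day 0 and 8.53 and 8.65 at day 7 in the feeder-free culture, and 9.55 and 9.17 in the feeder culture. Its call was lost in 6 alternatives (limma adjusted p of up to 0.281), with a change of -0.66 without the feeder-free array of day 0. A second row that names Ndufa10 beside another gene was left out. The calls of Ndufb6, Ndufb3 and Ndufa3 were also lost, in 6, 3 and 3 alternatives. In ATP synthase, Atp5f1a, the catalytic-head subunit alpha, fell by 0.30 ± 0.08 (limma adjusted p = 0.0435), from 14.80 to 14.43 and 14.56 in the feeder-free culture and from 14.35 to 14.08 in the feeder culture. The call of Atp5f1a was lost in 13 alternatives, with changes down to -0.20 and a limma adjusted p of up to 0.173. The stalk subunits Atp5po and Atp5pd fell by 0.39 and 0.32. Atp5f1b, the catalytic subunit beta, read 14.41 at day 0 and 13.80 and 13.97 at day 7 in the feeder-free culture and 14.72 and 14.65 in the feeder culture, and was not called. In complex IV, Cox5b fell by 0.49 ± 0.10 (limma adjusted p = 0.0124). Cox7a2l fell by 0.49 ± 0.08 (limma adjusted p = 0.00799), from 13.69 to 13.22 and 13.33 in the feeder-free culture and from 13.59 to 12.98 in the feeder culture.

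The count at day 7 rested on single arrays. Without the feeder-free array of day 0 it was 5, without either feeder-free array of day 7 it was 5 or 6, without either of day 17 it was 8, without replicate 1 of day 32 it was 7, and without the feeder array of day 7 it was 24. In each of these the members called higher were 0, except the last, with 1. Centring each array on the median of the 14506 genes, which moves the median change of all genes to -0.10, gave 22 members lower and 0 higher. With centring 17.9% of all genes were called in either direction, against 16% in the main fit. For the fits that left out 1 array, here and below, no share of all genes is given.

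**Figure D1:**
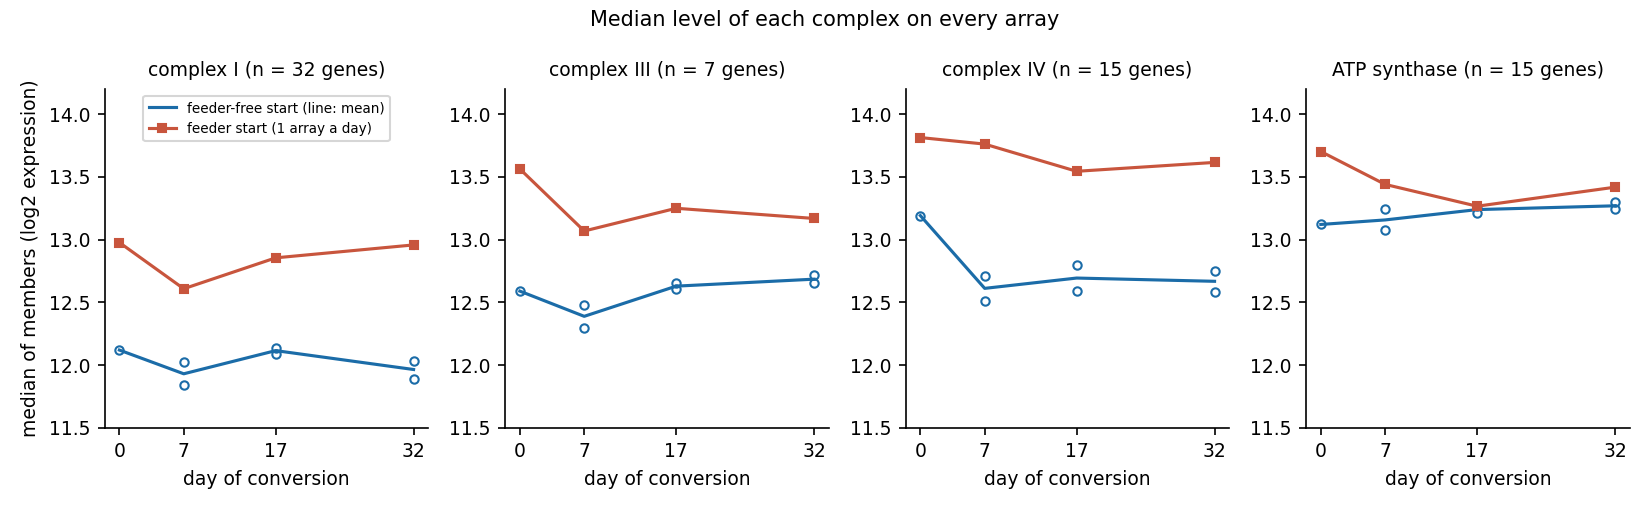
Median log2 expression of the members of complexes I, III and IV and of ATP synthase (vertical axis) on every array, against the day of conversion (horizontal axis). Circles are single feeder-free arrays with a line through their means, and squares are the feeder arrays, 1 per day. The complex I median was 12.12 on the feeder-free array of day 0, 11.84 and 12.02 at day 7 and 12.04 and 11.89 at day 32, against 12.98, 12.61 and 12.96 on the feeder arrays of the same days.

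From day 7 to day 17, 3 members rose and 0 fell (9.1% of all genes rose and 3.65% fell), and the median change was 0.13 against 0.09 over all genes. The 3 were Ndufs5 and Ndufa3, both accessory subunits of complex I, and Uqcr11, the smallest subunit of complex III. Ndufs5 read 12.28 and 12.20 at day 7 and 12.69 and 12.59 at day 17 in the feeder-free culture, and 12.41 and 12.82 in the feeder culture. Day 17 lay above day 7 in both cultures, by 0.40 ± 0.07 in the fit (limma adjusted p = 0.0138). Uqcr11 rose by 0.32 ± 0.09 (limma adjusted p = 0.0405), from 13.01 and 13.17 to 13.43 and 13.42 in the feeder-free culture and from 13.87 to 14.19 in the feeder culture. These calls depended on the scaling. After a further quantile normalization 0 members rose and 2 fell (8.69% of all genes called, against 12.8%), with a median of -0.01. The count was also 0 without either feeder-free array of day 17 or without the feeder array of day 17. It was 1 without feeder-free replicate 1 of day 7, without feeder-free replicate 1 of day 32 or without the feeder array of day 7, and 6 without either day 0 array.

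Between day 17 and day 32, limma called 0 of the 76 members and 0% of all genes in either direction. At an unadjusted p under 0.05 there were 3 members, all of complex I, and 1057 genes. In a fit of only the day 17 and day 32 arrays, chosen after the data were seen, the count of members was again 0, while 1.39% of all genes rose and 4.09% fell. With the feeder-free arrays alone, 1 member and 7.32% of all genes were called. The member was the complex I subunit Ndufb5, which read 13.61 and 13.73 at day 17 and 13.35 and 13.18 at day 32. In the feeder culture Ndufb5 read 14.01 and 13.83 on those days.

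Over the whole conversion, from day 0 to day 32, 17 members fell and 6 rose in limma (13.7% of all genes fell and 17.4% rose). The median change was -0.07, against 0.05 over all genes. Complex I had 8 falls and 3 rises, ATP synthase 4 falls and 3 rises, and complex IV 3 falls and 0 rises. Complex III had 0 of 7 called, with 1 at an unadjusted p under 0.05. The inhibitor Atp5if1 and Cox7a2l also fell. All 23 had the same sign in both cultures. A further quantile normalization gave 21 falls and 4 rises, with 32% of all genes called in either direction against 31% in the main fit. Without the feeder-free array of day 0 there were 10 falls and 1 rise, and without feeder-free replicate 2 of day 32 there were 9 falls and 4 rises. Without the feeder array of day 0 there were 11 falls and 10 rises, and without the feeder array of day 32 there were 11 falls and 6 rises.

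The lowest change belonged to Cox6b2, the testis form of complex IV subunit 6b. It read 10.20 at day 0 in feeder-free cells, then 8.97 and 9.12 at day 7, 8.81 and 8.76 at day 17, and 9.22 and 8.89 at day 32. In the feeder culture it read 11.34, 10.81, 8.93 and 8.93 on the same days. The cultures thus read alike at days 17 and 32, where all 6 arrays lay between 8.76 and 9.22, while at day 7 the feeder array was still above the feeder-free array of day 0. It fell by 1.64 ± 0.40 (limma adjusted p = 0.0131), a call that was lost without the feeder array of day 0 (change -1.39) or of day 32 (change -1.22), with a limma adjusted p of up to 0.0814. At day 7 its fitted change of -1.02 did not pass (limma adjusted p = 0.119). All its values from day 17 on stood near the background bound of 8.06, the highest at 9.22.

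Cox7b, an X-linked accessory subunit of complex IV, fell by 0.91 ± 0.21 (limma adjusted p = 0.00962). Without the feeder-free array of day 0 the change was -0.78 and the call was lost. In the feeder-free culture it read 13.19 at day 0 and 12.22 to 12.36 on the 6 later arrays. In the feeder culture it read 14.55 at day 0, 14.49 at day 7, 13.54 at day 17 and 13.62 at day 32. Every later feeder-free array lay below day 0, and in the feeder culture the drop stood between day 7 and day 17. Cox5b was the third complex IV member to fall, by 0.46 ± 0.10 (limma adjusted p = 0.00674), from 13.59 to 13.23 and 13.22 in the feeder-free culture and from 13.81 to 13.26 in the feeder culture. The other isoforms moved less: the change of Cox4i1 was -0.15 in the feeder-free and -0.09 in the feeder culture, that of Cox6a1 0.04 and 0.15, and that of Cox7a2 0.20 and -0.03, none of them called.

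In complex I, Ndufb3, a membrane-arm accessory subunit, read 13.16 at day 0 and 12.33 and 12.23 at day 32 in the feeder-free culture, and 12.09 and 11.46 in the feeder culture. It fell by 0.76 ± 0.11 (limma adjusted p = 0.00114). Ndufb11, another membrane-arm subunit, went from 12.45 to 11.91 and 11.78 in the feeder-free culture and from 13.99 to 13.16 in the feeder culture, and it fell by 0.71 ± 0.15 (limma adjusted p = 0.00763). In both genes the day 32 arrays of each culture lay below its day 0 array. Ndufs1 fell by 0.70 ± 0.11 (limma adjusted p = 0.00193), and Ndufs4, Ndufb6, Ndufv3, Ndufv2 and Ndufv1 by 0.34 to 0.55. The call of Ndufb11 was lost without the feeder array of day 0 (change -0.60). Those of Ndufv1, Ndufs4 and Ndufb6 were lost in 8, 3 and 2 alternatives.

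Rises at day 32 were found in 3 complex I genes. Ndufs8, an iron-sulfur subunit of the arm that reduces coenzyme Q, read 11.99 at day 0 in the feeder-free culture, 12.15 and 12.27 at day 7, 12.38 and 12.34 at day 17, and 12.68 and 12.56 at day 32. In the feeder culture it read 12.47, 12.37, 12.89 and 12.98. Each culture was at its highest at day 32, and the change was 0.57 ± 0.11 (limma adjusted p = 0.00415). Ndufa2, an accessory subunit of the module that oxidises NADH, rose by 0.52 ± 0.11 (limma adjusted p = 0.00602), from 10.02 to 10.61 and 10.44 and from 10.03 to 10.61 in the feeder culture. At day 0 both cultures read alike for it. Without the feeder-free array of day 0 the calls of Ndufs8 (change 0.50) and Ndufa2 (change 0.48) were lost (limma adjusted p = 0.0515 and 0.0613). Ndufs5 rose by 0.41 ± 0.08 (limma adjusted p = 0.00541).

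The other 3 rises were the 3 genes for subunit c, which forms the turning ring of ATP synthase and is made from Atp5mc1, Atp5mc2 and Atp5mc3. Atp5mc1 read 11.99 at day 0 and 12.82 and 12.81 at day 32 in the feeder-free culture, and 13.74 and 13.80 in the feeder culture. Its change was 0.50 ± 0.15 (limma adjusted p = 0.0368). This call was lost in 9 alternatives (limma adjusted p of up to 0.427), with a change of 0.21 without the feeder-free array of day 0. Within the cultures it changed by 0.83 in the feeder-free and by 0.06 in the feeder culture. Atp5mc3 read 13.12 at day 0 and 13.87 and 13.76 at day 32 in the feeder-free culture, and 13.87 and 14.09 in the feeder culture, a rise of 0.47 ± 0.12 (limma adjusted p = 0.0174). Its call was lost without the same array, with a change of 0.23, and without feeder-free replicate 1 of day 32 (limma adjusted p of up to 0.222). Atp5mc2 read 14.01 at day 0 and 14.55 and 14.54 at day 32 in the feeder-free culture, and 14.47 and 14.59 in the feeder culture, a rise of 0.35 ± 0.11 (limma adjusted p = 0.0349). The call of Atp5mc2 was also lost without the feeder-free array of day 0. Its change was 0.54 in the feeder-free and 0.12 in the feeder culture. In all 3 genes the change was larger in the feeder-free culture, a difference that was not tested. The 4 ATP synthase members that fell, Atp5me, Atp5pb, Atp5po and Atp5pd, did so by 0.28 to 0.44, and they belong to the stalk and the membrane part around the ring. The call of Atp5me was lost in 5 alternatives and that of Atp5pb in 1. Atp5if1, which blocks reverse turning of the enzyme, read 14.24 at day 0 and 13.74 and 13.61 at day 32 in the feeder-free culture, and 13.76 and 13.56 in the feeder culture. It fell by 0.40 ± 0.11 (limma adjusted p = 0.0211), a call lost without the feeder-free array of day 0 (change -0.23) or feeder-free replicate 2 of day 32 (change -0.35).

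**Figure D2:**
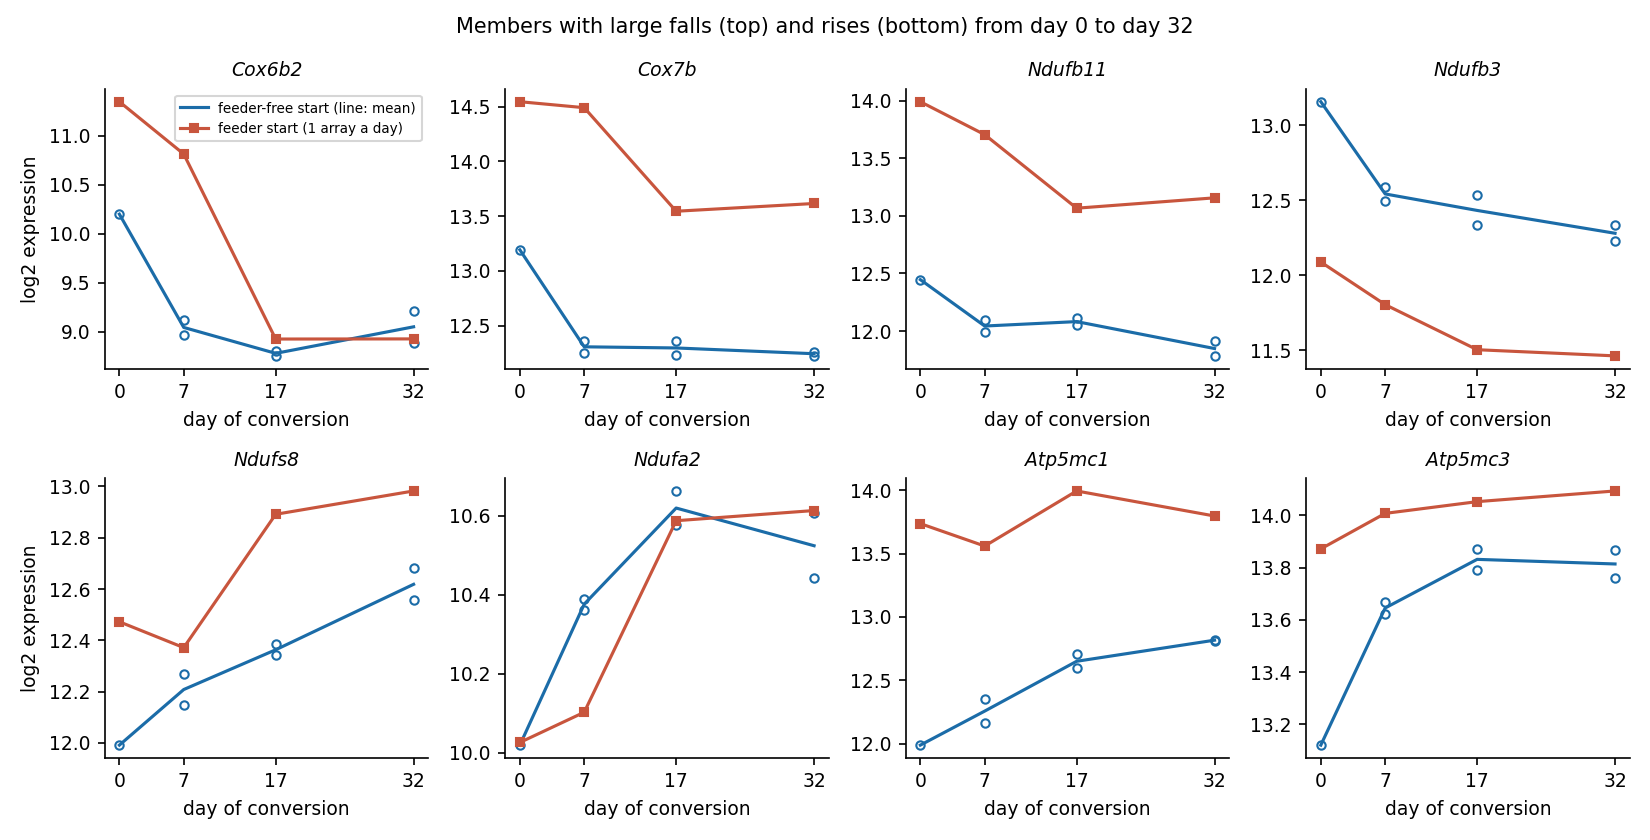
Log2 expression (vertical axis, a scale of its own in each panel) against the day of conversion for 4 members that fell (Cox6b2, Cox7b, Ndufb11 and Ndufb3, top) and 4 that rose (Ndufs8, Ndufa2, Atp5mc1 and Atp5mc3, bottom) from day 0 to day 32. Circles are feeder-free arrays with a line through their means and squares are the feeder arrays. Cox6b2 reached 8.76 to 9.22 in both cultures by day 17, while Cox7b stayed higher in the feeder culture, at 13.54 and 13.62 against 12.22 to 12.36.

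Since the cultures were measured on separate arrays, the change from day 0 to day 32 can be set against itself. Across the 76 members the feeder-free and the feeder changes had a Pearson r of 0.71, and 0.71 without Cox6b2, against 0.83 across the other 14430 genes. Members share arrays and normalization, so these are descriptions. In both cultures 35 members were lower at day 32 and 20 were higher, against 29.2% and 44.1% of all genes, and 21 had opposite signs.

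**Figure D3:**
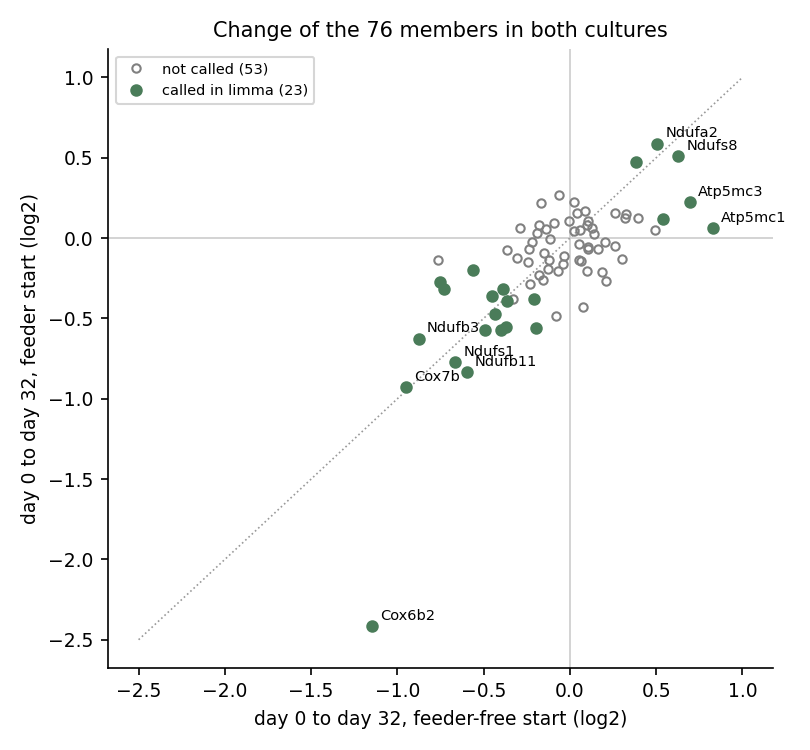
Change from day 0 to day 32 in log2 units in the feeder-free culture (horizontal axis) and in the feeder culture (vertical axis) for each of the 76 members, with the 23 called in limma filled. Cox6b2 lies lowest, at -1.15 and -2.42, and Ndufs8 lies high in both, at 0.63 and 0.51.

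The level of the members also differed by the starting culture. Over all days, 43 of 76 members were higher and 10 lower in the feeder culture in limma (15.5% of all genes were higher and 17.2% lower). The median difference, feeder minus feeder-free, was 0.39 for the members and -0.04 for all genes. It was 0.45 for complex I, 0.71 for complex III, 0.56 for complex IV and 0.31 for ATP synthase. Complex III had 6 of 7 members higher and 0 lower, complex IV 7 of 15 and 0, complex I 22 of 32 and 3, and ATP synthase 8 of 15 and 4. The 15 of complex IV include 3 that lay below background on all arrays. Each culture's arrays form a set of their own, so the starting culture and any difference in how the sets were handled cannot be told apart. In this fit the arrays of all days served as repeats of a culture. Its errors and p-values, here and for single genes below, therefore do not measure the spread between independent starting cultures.

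A difference was seen on each of the 4 days. By day it was called higher in 40 members and lower in 9 at day 0 (14.7% and 16.9% of all genes), 43 and 5 at day 7 (20.4% and 20.8%), 35 and 8 at day 17 (13.9% and 13.8%), and 37 and 7 at day 32 (14.3% and 11.6%), in a limma fit with a mean for each of the 8 groups. The members called higher at day 7 include Cox4i2 (0.74) and Cox6c-ps1 (0.35), which lay below background on all 11 arrays. The median differences of the members on the 4 days were 0.48, 0.49, 0.34 and 0.33. In that fit the single feeder arrays are assumed to vary like the feeder-free pairs. On all 4 days 46 members were higher in the feeder culture and 12 were lower, against 18.3% and 26.3% of all genes. Every feeder array lay above every feeder-free array in 37 members and below it in 7, against 6.33% and 8.68% of all genes. Over the same days the mean of the fibroblast markers was higher in the feeder culture by 1.51, 0.90, 0.42 and 0.17. At day 32, when that gap was 0.17, the members' median difference was 0.33 and 1 of the 14 fibroblast genes was called higher. S100a4 then read 8.99 on the feeder array against 7.09 and 7.00 on the feeder-free arrays, and Postn 6.87 against 6.90 and 6.82. On the feeder arrays of days 0, 7 and 17 S100a4 had read 7.47, 10.11 and 11.10, so it rose to day 17 while the marker mean fell. At day 0, 11 of the 14 were called higher. The part of fibroblast RNA in the members' difference was not tested. The feeder cells were of mouse and the arrays of rat, and how the probes read mouse RNA was not examined.

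Complex I held both ends of the range. Ndufb6, a membrane-arm subunit, read 12.11 at day 0 in the feeder-free culture, 11.30 and 11.37 at day 7, 11.63 and 11.42 at day 17, and 11.41 and 11.30 at day 32. In the feeder culture it read 14.44, 14.15, 13.92 and 14.17. The groups did not overlap, and the difference was 2.61 ± 0.10 (limma adjusted p = 1.50e-06). Ndufs4, an accessory subunit known from inherited complex I deficiency, read between 11.75 and 12.53 in the feeder-free and between 14.26 and 14.58 in the feeder culture, a difference of 2.30 ± 0.10 (limma adjusted p = 4.10e-06). Ndufc2 followed with 2.06 ± 0.06 and Ndufb7 with 1.80 ± 0.09, again without overlap. At the other end, Ndufb2, also of the membrane arm, read between 11.80 and 12.12 on the 7 feeder-free arrays and 10.48, 10.10, 10.63 and 10.70 in the feeder culture. Every feeder array lay below every feeder-free array, with a difference of -1.45 ± 0.09 (limma adjusted p = 1.47e-05). Ndufb3 was lower too, with a difference of -0.88 ± 0.07 (limma adjusted p = 4.56e-05), and it read 11.46 to 12.09 in the feeder culture against 12.23 to 13.16. Rows for subunits of the same complex, and of the same membrane arm, thus differed between the cultures in opposite directions. Each of these genes had 1 row on the array, so its difference could not be checked in another row.

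In complex III the differences were more alike. Uqcrq, Uqcr11, Uqcrb, Uqcrh, Uqcrc1 and Uqcrc2 were higher in the feeder culture by 0.42 to 0.95. Uqcrfs1, the Rieske iron-sulfur protein that passes electrons on to cytochrome c1, was the exception: it read 11.38 to 11.83 in the feeder-free and 11.37 to 11.62 in the feeder culture, and was not called. Uqcrc1, a core protein, was higher in the feeder culture by 0.50, 0.68, 0.38 and 0.39 on the 4 days, and its arrays did not overlap.

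In complex IV the 7 called members were Cox4i1, Cox5a, Cox6c, Cox7a2, Cox7b, Cox7c and Cox8a. Cox7a2, the widely expressed form of subunit 7a, read 12.40 to 12.63 in the feeder-free and 13.91 to 13.94 in the feeder culture, with a difference of 1.40 ± 0.06 (limma adjusted p = 4.10e-06). Cox5a, which binds next to the catalytic core, read 12.92 to 13.24 and 13.76 to 13.94. Cox8a read 13.87 to 14.30 and 14.81 to 15.26. Every feeder array lay above every feeder-free array in 6.33% of all genes, and a call on these same arrays favours such a gap. None of the 7 overlapped between the cultures. Cox6a1 and Ndufa4 did, with differences of -0.03 to 0.08 for Cox6a1 and of -0.07 to 0.10 for Ndufa4.

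For ATP synthase, Atp5mk and Atp5mc1 were higher in the feeder culture by 1.41 ± 0.11 and 1.32 ± 0.11, and Atp5f1b by 0.47 ± 0.08 (limma adjusted p = 3.94e-05, 3.81e-05 and 0.00253). Atp5me, Atp5pb, Atp5f1a and Atp5f1c were lower. Atp5me read 11.12 to 11.66 in the feeder-free and 10.06 to 10.64 in the feeder culture, and Atp5f1a 14.43 to 14.80 and 14.08 to 14.35. The alpha and beta subunits alternate around the catalytic head in equal number. Their rows thus differed between the cultures in opposite directions, with no overlap of the arrays for either. Both genes had 1 row, so this could not be checked in another row.

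**Figure D4:**
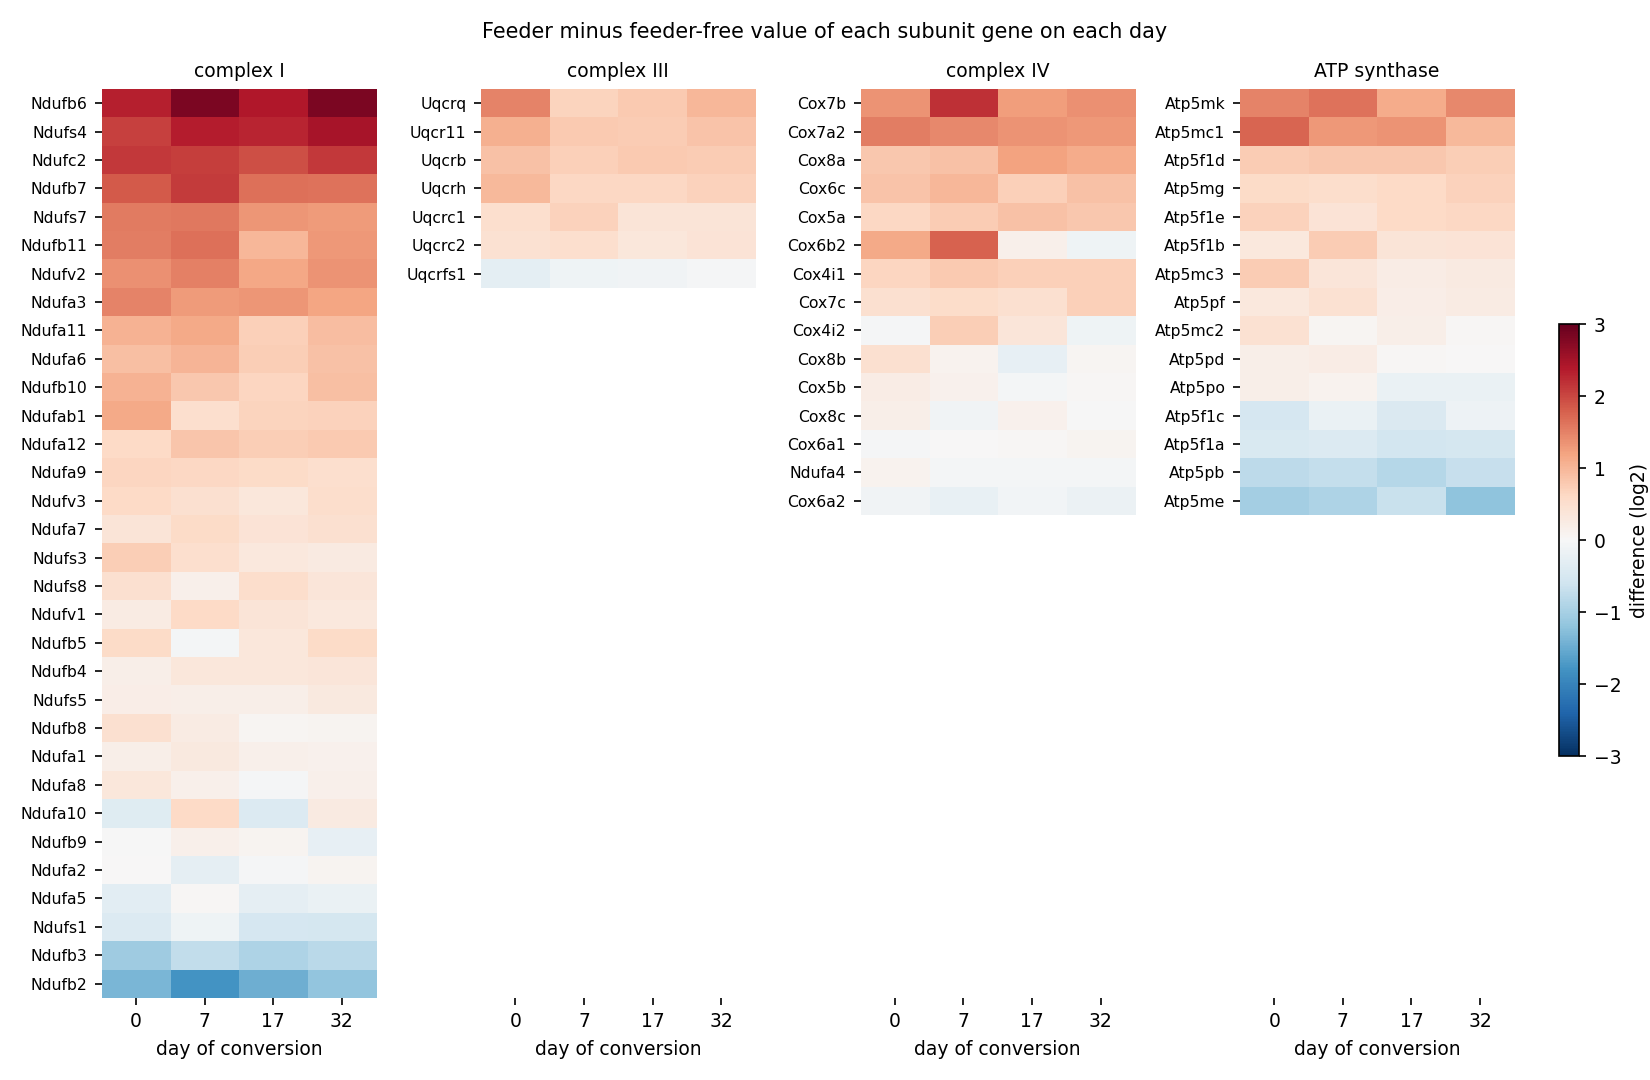
Feeder minus feeder-free value in log2 units (colour) of each subunit gene (rows, by complex) on days 0, 7, 17 and 32 (columns). Most rows keep their colour across the 4 days: Ndufb6 stayed at 2.33 to 2.82 and Ndufb2 at -1.78 to -1.18.

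Most members kept the sign of their difference through the conversion, while 18 had mixed signs over the 4 days, among them Cox6b2 (1.15, 1.77, 0.15 and -0.12 on days 0, 7, 17 and 32) and Ndufa10. The days share no arrays, but each compares the same 2 starting cultures, so they are not independent repeats of the difference. Between pairs of days, the differences of the 76 members had a Pearson r of 0.91 to 0.96, against 0.36 to 0.82 in the other genes. Among other genes at or above the members' lower quartile of level it was 0.45 to 0.93. The spread over days, as a root mean square SD, was 0.21 in the members, while the SD over members was 0.72. In the other genes of such levels these were 0.38 and 0.52. Other genes of like level were split more evenly. At a mean level of 12 or above, 71.7% of 53 members were called higher and 13.2% lower in the feeder culture, with a median difference of 0.56. Of the 2291 other genes in that range 26.1% were higher and 31.0% lower, with a median of -0.03. Ribosomal protein genes, 76 as well and mostly at high levels, had 28.9% higher and 50% lower, with a median of -0.16. No test compares these sets.

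**Figure D5:**
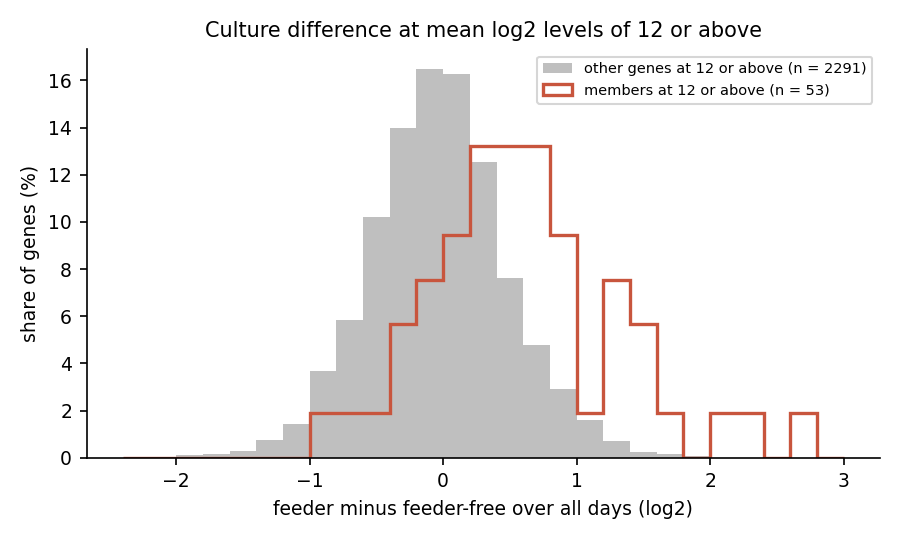
Share of genes in percent (vertical axis) by their difference between the cultures over all days, feeder minus feeder-free, in log2 units (horizontal axis), for the 53 members (outline) and the 2291 other genes (grey) with a mean log2 level of 12 or above. The members' median is 0.56 and that of the other genes -0.03.

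Of the 11 members with more than 1 row on the array, 7 had differences of the same sign in all rows on all 4 days. Atp5mc3 was the clearest exception. Its brightest row gave 0.75, 0.36, 0.22 and 0.28 on days 0, 7, 17 and 32, and its other row gave -1.27, -1.41, -1.79 and -1.58. For time these rows read alike: from day 0 to day 32 they changed by 0.69 and 0.59 in the feeder-free culture and by 0.22 and 0.28 in the feeder culture. Ndufv3 had differences of 0.34 to 0.61 in its brightest row and of -0.33 to 0.01 in the other, with changes of -0.49 and -0.54 in the feeder-free culture and of -0.57 and -0.41 in the feeder culture. The culture difference of these 2 genes therefore depended on the row, while their change over time did not. Over the 11 genes, all rows had the same sign of the day 0 to day 32 change in both cultures in 9.

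A few members took different courses in the 2 cultures. In the fit of 8 groups, the day 0 to day 7 change differed for 5 members, higher in the feeder culture for 2 and lower for 3 (10.9% and 11.2% of all genes). The 2 were Ndufa10, which changed by -1.32 in the feeder-free and by -0.37 in the feeder culture, and Cox7b, at -0.89 and -0.05. The 3 were Uqcrq, Ndufb5 and Ndufab1, the carrier protein of mitochondrial fatty acid synthesis and a complex I subunit. Uqcrq read 12.10 at day 0 and 12.21 and 12.42 at day 7 in the feeder-free culture, and 13.60 and 12.97 in the feeder culture, so that its changes were 0.21 and -0.62. The difference of the changes was -0.84 ± 0.20 (limma adjusted p = 0.00700). Without feeder-free replicate 2 of day 7 the count was 3, with 2 higher and 1 lower. Centring on the median of the genes gave 5 higher and 3 lower, and a further quantile normalization 3 and 7. These settings called 25.1% and 26.2% of all genes in either direction, against 22% in the main fit.

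From day 7 to day 17 the change differed for 4 members, all lower in the feeder culture (8.97% of all genes lower and 10.7% higher): Cox6b2, Ndufa10, Cox7b and Ndufb11. Cox6b2 changed by -0.26 in the feeder-free and by -1.88 in the feeder culture, a difference of -1.62 ± 0.21 (limma adjusted p = 6.64e-05). Ndufb11 changed by 0.04 and -0.64, a difference of -0.68 ± 0.18 (limma adjusted p = 0.0142). Over the same days the feeder minus feeder-free value of the mean over the 5 naive genes went from 1.43 to -0.30, and that of the 5 hypoblast genes from -2.88 to -0.33.

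Other genes of the pathway were taken from lists of complex II, assembly factors, the citric acid cycle, pyruvate entry, regulators of mitochondrial biogenesis, coenzyme Q synthesis, carriers and the response to low oxygen. From day 0 to day 32, 17.4% of all genes rose and 13.7% fell. Over those days complex II had 0 rises and 1 fall among 4 genes. Assembly factors of complexes III and IV had 1 and 4 of 17, and those of complexes I and V outside the symbol rule 0 and 3 of 8. The citric acid cycle had 1 rise and 0 falls among 10 genes, and coenzyme Q synthesis 2 and 2 of 10. Median changes from day 0 to day 7, -0.24 for the members, were -0.35 for complex II and -0.32 for pyruvate entry. They were -0.20 for assembly factors of complexes III and IV and -0.47 for those of complexes I and V. The citric acid cycle and low oxygen lists had -0.20 each, coenzyme Q synthesis -0.18, the regulators -0.11 and carriers -0.04. Within the symbol rule, 0 of the 3 assembly factors of complex I were called in either interval from day 0. Between the cultures over all days, complex II had 1 gene higher and 3 lower (15.5% and 17.2% of all genes). Its median was -0.25, against 0.39 for the members. Medians were 0.08 for assembly factors of complexes III and IV and 0.28 for those of complexes I and V. They were 0.24 for pyruvate entry, 0.20 for coenzyme Q synthesis and -0.01 for the regulators. The citric acid cycle and low oxygen lists had -0.10 each, and carriers -0.19. Cycs, which encodes the cytochrome c that links complexes III and IV, was not called from day 0 to day 7 or to day 32, rose by 0.45 ± 0.09 from day 7 to day 17 (limma adjusted p = 0.0171) and was called higher in the feeder culture, by 0.71.

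The regulators of biogenesis had 1 rise and 4 falls among 14 genes from day 0 to day 32 (17.4% of all genes rose and 13.7% fell). Ppargc1b, a coactivator of respiratory genes, read 10.41 at day 0, 9.13 and 9.27 at day 7, and 8.45 and 8.42 at day 32 in the feeder-free culture, and 10.45, 9.12 and 8.52 in the feeder culture. It fell by 1.95 ± 0.11 (limma adjusted p = 2.75e-05), with the cultures alike. Esrrb, a nuclear receptor that is also a naive pluripotency gene, fell by 1.59 ± 0.37, and Pprc1, a related coactivator, rose by 0.75 ± 0.13 (limma adjusted p = 0.0112 and 0.00326).

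Pyruvate entry had 1 rise and 5 falls among 12 genes. For this list and those below, the share of all genes from day 0 to day 32 was 17.4% that rose and 13.7% that fell. Pdha1, the X-linked catalytic subunit of pyruvate dehydrogenase, read 14.08 at day 0, 12.39 and 12.47 at day 7, and 12.62 and 12.61 at day 32 in the feeder-free culture, and 13.83, 11.31 and 12.15 in the feeder culture. It fell by 1.61 ± 0.18 (limma adjusted p = 0.000486), and Pdk2, a kinase that switches that enzyme off, rose by 1.07 ± 0.19 (limma adjusted p = 0.00306). Carriers had 2 rises and 0 falls among 7 genes. Ucp2, an uncoupling protein family member of the inner membrane, read 8.43 at day 0 and 12.83 and 12.79 at day 32 in the feeder-free culture, and 11.01 and 13.18 in the feeder culture, a rise of 3.29 ± 0.58 (limma adjusted p = 0.00309). Slc25a4, which exchanges ADP for ATP, rose by 1.07 ± 0.09 (limma adjusted p = 0.000166). The list for low oxygen had 3 rises and 7 falls among 14 genes.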

How the data were processed

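Total RNA of 11 samples was hybridised to Affymetrix Rat Gene 1.0 ST arrays. The values are log2 expression values that the authors deposited in 1 table; per the submitters' processing notes RMA was used, and its version and options are not given in the sources used here. Every array had the same median over the table's rows, 8.97. Scanner files were not used here, so detection per probe set was not examined, and the number of arrays limits the precision. RMA draws low values together.

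Of 29214 rows, the platform annotation gave 1 gene symbol to 15310, several to 323 and none to 13581. A gene with several rows took its brightest row on average, which gave 14506 genes, and 88 rows gave the 76 members. A row naming Ndufa10 with a second gene was left out.

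limma 3.58.1 in R 4.3.3 was fitted to all genes with lmFit and eBayes: terms for day and culture on all 11 arrays (6 residual degrees of freedom), and a mean for each of the 8 groups (3 residual degrees of freedom) for the culture difference on each day and for differences of change. Values were adjusted by Benjamini-Hochberg and called under 0.05. The calculation was tested on simulated data. The members and all gene lists were chosen with earlier results of these data known. Named genes were the called members with the largest change in each comparison, up to 5 each way, and a list of isoforms, core subunits and the ATP synthase inhibitor. From each other list up to 3 called genes were named. Olfactory and vomeronasal receptor genes were taken as background.

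Replicate numbers were checked for pairing: between days 7, 17 and 32 the differences of replicates 1 and 2 correlated at 0.03, -0.20 and -0.10 across genes, so the numbers were treated as names. The alternatives tried were leaving out the 25% of genes with the lowest mean, averaging a gene's rows, quantile normalization, median centring of each array, the trend and robust options of eBayes, a replicate block, the 8-group fit for changes between days, the feeder-free arrays alone, leaving out each array in turn and, added after the data were seen, the arrays of days 17 and 32 alone. Promoter windows came from RefSeq on GRCr8. Python 3.11.15 with pandas 2.3.3 and matplotlib 3.10.9 made the summaries and figures.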

Additional observations from a re-analysis of the deposited data

Results flagged for a closer look

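For these members the change over an interval differed between the cultures in the test of that difference, limma with a mean for each of 8 groups, in which the feeder culture has 1 array per day. All values are feeder change minus feeder-free change in log2 units. From day 0 to day 7 they were -0.84 for Uqcrq, -0.64 for Ndufb5, -0.62 for Ndufab1, 0.83 for Cox7b and 0.95 for Ndufa10. From day 7 to day 17 they were -1.62 for Cox6b2, -0.99 for Ndufa10, -0.94 for Cox7b and -0.68 for Ndufb11. Cox7b and Ndufa10 appear in both intervals with opposite signs, and the feeder and feeder-free arrays of day 7 enter both.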

How the results depend on the processing

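The culture difference over all days and at days 0, 7, 17 and 32 kept its count of called members within 1.5 times under every alternative run. Single arrays limited the counts of change. Percentages in brackets are the share of all genes called under the same alternative. Called counts (higher and lower together) moved as follows. From day 0 to day 7 the 13 (16%) became 22 (17.9%) with centring, 7 (9.13%) with the replicate block, 24 (36.9%) with feeder-free arrays only and 26 (33.7%) with the 8-group fit. From day 7 to day 17 the 3 (12.8%) became 5 (18.7%) without the dimmest 25% of genes, 6 (12.7%) with trend and robust, 7 (23.8%) with feeder-free arrays only and 16 (36.9%) with the 8-group fit, and the median of 0.13 became -0.0091 with quantile normalization. From day 17 to day 32 the 0 (0%) became 1 (7.32%) with feeder-free arrays only. The 5 members whose day 0 to day 7 change differed between cultures (22%) became 10 (26.2%) with quantile normalization, 8 (25.1%) with centring and 13 (25.9%) with trend and robust, and the median of that difference, 0.05, became 0.14 with centring. The 4 (19.7%) for day 7 to day 17 became 9 (23.7%), 7 (22.7%) and 11 (23.8%), and their median of -0.13 became -0.24 with centring. The causes were not tested.

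Leaving out each array in turn gave 5 to 24 called members for day 0 to day 7, 0 to 6 for day 7 to day 17, 11 to 25 for day 0 to day 32 (with 11 falls and 10 rises among 21 without the feeder array of day 0), and 3 to 7 for the day 0 to day 7 change that differed between cultures. The median culture difference ran from 0.41 to 0.54 at day 7 and from 0.26 to 0.42 at day 32, and the median difference of the day 7 to day 17 change from -0.20 to -0.048. Leaving out an array that is the only one of its group left no value for comparisons that need it.

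With the replicate block, 16 members were called from day 0 to day 32 and 50 between the cultures over all days, against 23 and 53; the numbers do not pair the samples. Atp5mc3 turned sign when the mean of its rows was used, to -0.57 over all days, -0.26 at day 0 and -0.52 at day 7. Of 186 results for single named genes, 140 kept their direction and their call in every alternative. Of their 3054 values under alternatives, 167 kept the direction and lost the call.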
